A study of Homo sapiens with 14 samples.

Results

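The 6 genes of the human CEBP set, CEBPA, CEBPB, CEBPD, CEBPE, CEBPG and CEBPZ, were followed by gene symbol through a table of raw read counts for 58037 gene IDs in 14 libraries. Every library came from OCI-AML2, a cell line of human acute myeloid leukaemia. Mutant cells, with the R174* stop codon on 1 RUNX1 allele, gave total RNA after 100 nM HHT for 8 h (4 libraries) and as controls (4 libraries). HHT is homoharringtonine, a drug that blocks translation elongation. Each of these groups held 2 libraries of line G7 and 2 of line F3, and both lines carry the same genotype in the labels, which do not say whether each is a single clone. The parent line with intact RUNX1, labelled as having no treatment, gave 2 wild-type libraries of total RNA. RiboLace, which uses a puromycin-like probe to pull down ribosomes with the RNA they are translating, was run on 2 untreated mutant libraries, all of line F3, and on 2 untreated wild-type libraries. The control libraries are labelled as 8 h controls in 1 field and as 0 h in another. HHT and time in culture therefore cannot be told apart if the second field is right, and genotype and control handling cannot be told apart in the comparison with wild type. The labels do not say whether replicates came from separate cultures, so p-values measure only the spread between these libraries, which may be technical.

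C/EBP proteins are basic leucine zipper (bZIP) transcription factors that bind DNA as dimers, with each other or with relatives such as ATF4. In the myeloid lineage C/EBPα, encoded by CEBPA, starts granulocyte differentiation and slows proliferation. C/EBPβ (CEBPB) takes over in emergency granulopoiesis and in macrophages, C/EBPδ (CEBPD) belongs to the acute phase and inflammatory response, and C/EBPε (CEBPE) drives the late steps of granulocyte maturation. C/EBPγ (CEBPG) lacks an activation domain of its own and dimerises with ATF4 on amino acid response genes. CEBPZ shares the family name but is no bZIP factor. Its protein is a relative of yeast Noc1, a factor of large ribosomal subunit assembly, and the bZIP protein once called C/EBPζ is CHOP, encoded by DDIT3.

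Total RNA libraries held 19250789 to 21925693 reads and RiboLace libraries 465052 to 2034796. Of 7 myeloid markers, 6 had a mean above 1 CPM (reads scaled to library size) in every group, whereas ANPEP was at most 0.263 CPM. All 5 erythroid markers had 0 reads in every library, and the summed level of the 5 lymphoid markers was at most 2.78 CPM. Of 4 megakaryocyte markers, PF4 and PPBP had 0 reads, and the summed level of the list lay between 2.74 and 9.65 CPM in HHT libraries, 6.98 and 29.2 CPM in mutant controls and 4.65 and 5.82 CPM in wild type. ITGA2B averaged 3.78, 12.2 and 1.3 CPM in those groups, and GP9 2, 3.67 and 3.94 CPM. The summed level of the 6 adherent-cell markers lay between 1.11 and 1.79 CPM in HHT libraries, 7.57 and 10.3 CPM in mutant controls and 8.79 and 12.3 CPM in wild type, of which PDGFRB made up 0.46, 8.04 and 10 CPM on average. EPCAM and COL1A2 had 0 reads in all libraries. RUNX1 itself stood at 141 to 172 CPM in HHT libraries, 80 to 134 CPM in mutant controls and 132 to 142 CPM in wild type. Gene-level counts cannot show the R174* allele.

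All 6 genes had enough reads to be tested in each of 8 comparisons. CEBPA, CEBPB and CEBPD are single-exon genes of 2631, 1956 and 2178 nucleotides of exon in GENCODE 29 (GRCh38). CEBPA lies at chr19:33299934-33302564 on the minus strand, CEBPB at chr20:50190734-50192689 on the plus strand and CEBPD at chr8:47736909-47739086 on the minus strand. CEBPE has up to 2 exons at chr14:23117304-23119616 (minus strand, 1554 nucleotides of exon), CEBPG up to 2 exons at chr19:33373330-33382686 (plus strand, 4411) and CEBPZ up to 16 exons at chr2:37201612-37231713 (minus strand, 3629). Whether counting used strand is not given in the sources used here. The antisense genes AC008738.3 and AC008738.5 cover 659 and 482 of the 2631 nucleotides of the CEBPA exon and had 0 reads in all 14 libraries. With strand use unknown, these 0 reads cannot show whether reads in those stretches were counted for CEBPA or left out. Whether this lowered CEBPA per kilobase, and the orders, shares and ratios built on it below, was not tested. CEBPB-AS1 covers 11.8% of the CEBPB exon, and CEBPZOS, AC007390.2 and NDUFAF7 cover 9.7%, 11.2% and 2.3% of the CEBPZ exons, so that reads in those stretches could belong to either gene.

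Per kilobase of exon, CEBPE, CEBPD and CEBPB led in HHT libraries, and CEBPD, CEBPE and CEBPA in mutant controls and wild type. In HHT libraries the order was CEBPE (48.9 ± 22.2 CPM per kilobase), CEBPD (43.3 ± 21.9), CEBPB (39 ± 14.1), CEBPA (18.6 ± 5.96), CEBPZ (18 ± 1.04) and CEBPG (14.1 ± 1.28; SD, n = 4 each), with overlap between all neighbours except CEBPZ and CEBPG. CEBPD averaged 65.2 ± 13 CPM per kilobase in mutant controls, CEBPE 60.9 ± 21.4 and CEBPA 43.2 ± 6.86. CEBPB averaged 17.7 ± 2.72, CEBPG 16.5 ± 2.21 and CEBPZ 11 ± 1.83 (SD, n = 4 each). Libraries of neighbours in that order overlapped for CEBPD with CEBPE, for CEBPE with CEBPA and for CEBPB with CEBPG, and did not overlap between CEBPA and CEBPB or between CEBPG and CEBPZ. In wild-type total RNA the order was CEBPD (91 ± 22.3 CPM per kilobase), CEBPA (60.8 ± 15.4), CEBPE (37.2 ± 5.85), CEBPB (16.4 ± 4.47), CEBPG (14.6 ± 0.427) and CEBPZ (9.73 ± 1.52; SD, n = 2 each), and the 2 libraries overlapped between neighbours for CEBPB and CEBPG alone.

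**Figure D1:**
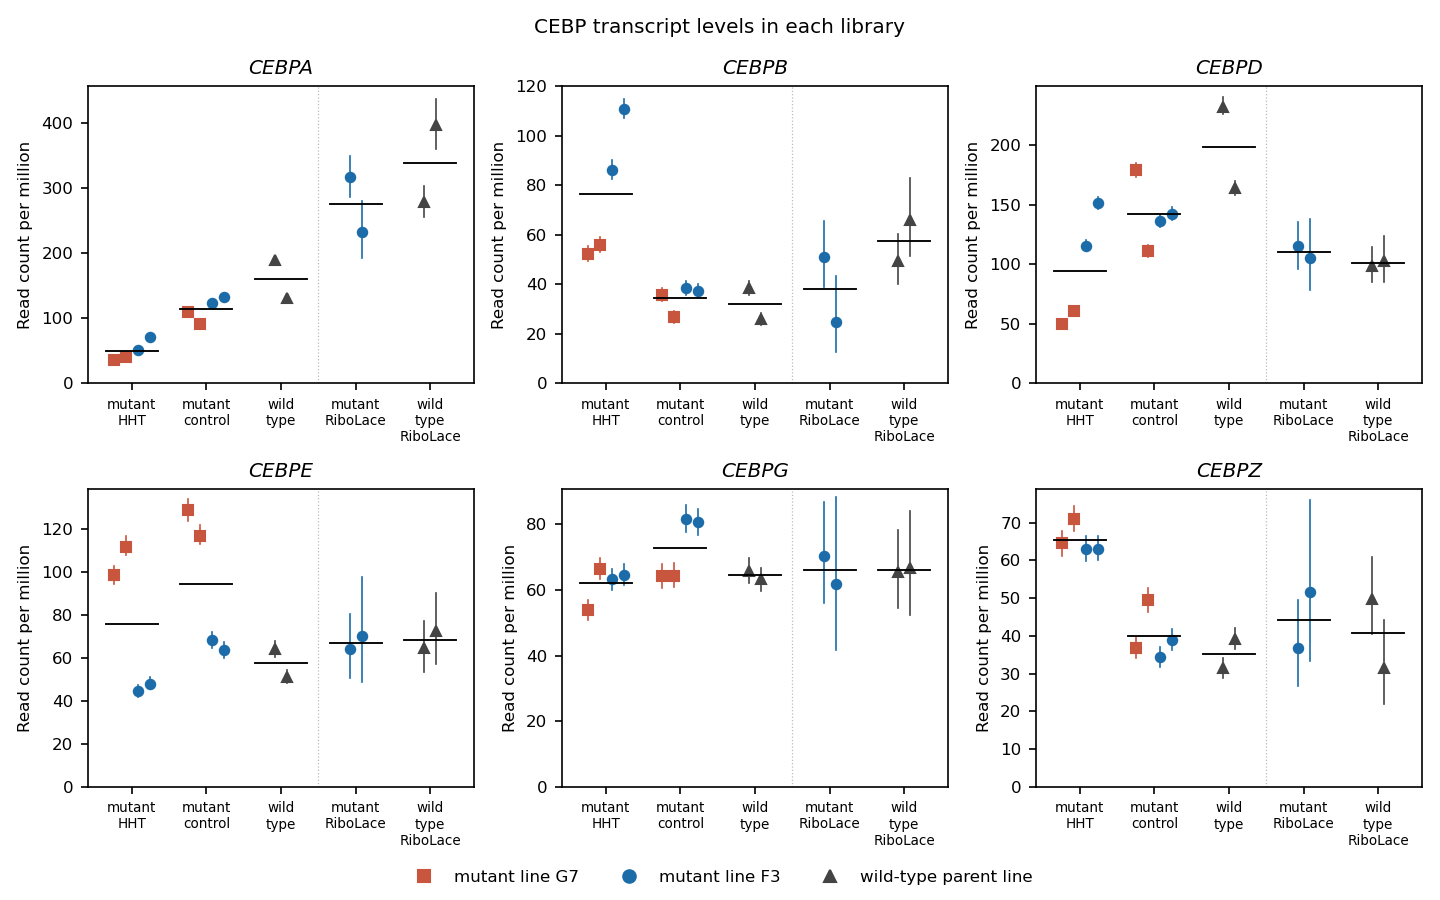
CPM (scaled by TMM within total RNA and within RiboLace) of each gene, one panel per gene and one point per library; vertical bars are 95% Poisson intervals, which cover counting error only, and horizontal lines are group means. CEBPA was at 35.2 to 70.4 CPM in the 4 HHT libraries and at 90.6 to 132 CPM in the 4 mutant controls, while CEBPB was at 52.2 to 111 CPM and 26.7 to 38.4 CPM in the same groups.

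In HHT libraries CEBPA was lower and CEBPB and CEBPZ were higher than in mutant controls, while CEBPD, CEBPE and CEBPG were lower by smaller or line-dependent amounts. The question here was how the CEBP transcripts stood after translation had been inhibited for 8 h in RUNX1-mutant cells. With edgeR's quasi-likelihood test and line as a covariate, all 6 genes passed an adjusted p of 0.05 (Benjamini-Hochberg over all genes tested): 2 rose and 4 fell. Most genes did: 79.2% of the 13621 genes tested were called, 39.9% upwards and 39.3% downwards. Being called thus says little about the family, and the sizes and the spread between libraries carry the description. The share of all genes whose HHT and control libraries did not overlap was not counted, so lack of overlap below describes single genes only. As these are bulk libraries, fewer cells of a type and less RNA per cell cannot be told apart. PDGFRB of the adherent-cell list and ITGA2B of the megakaryocyte list were also lower on average in HHT libraries than in controls (above), and their part in these values was not tested.

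CEBPA, the gene of the granulocyte lineage factor C/EBPα, was at 35.2 and 39.7 CPM in HHT-treated G7 and at 50.9 and 70.4 CPM in HHT-treated F3, against 109 and 90.6 CPM in G7 controls and 123 and 132 CPM in F3 controls. Every HHT library was below every control. The fitted change was -1.25 ± 0.10 on the log2 scale (approximate SE; 95% interval -1.45 to -1.04; adjusted p = 6.77e-08, edgeR), a 2.37-fold lower level. It stood at percentile 12 of the log2 fold changes of all genes tested. CEBPA-DT, a noncoding gene that starts 293 bp from CEBPA and runs the other way without overlapping it, was at 1.37 to 2.18 CPM in HHT libraries and at 5.13 to 7 CPM in controls, with a log2 fold change of -1.80 ± 0.14 (adjusted p = 4.03e-08, edgeR). Both genes of this divergent pair thus fell.

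CEBPB, the gene of C/EBPβ, moved the other way. It was at 52.2 and 55.9 CPM in HHT-treated G7 and at 86.3 and 111 CPM in HHT-treated F3, against 35.8 and 26.7 CPM in G7 controls and 38.4 and 37.3 CPM in F3 controls. No HHT library overlapped a control, and within HHT the F3 libraries were above the G7 libraries. The log2 fold change was 1.09 ± 0.12 (95% interval 0.84 to 1.33; adjusted p = 1.67e-06, edgeR), 2.12-fold, at percentile 86.5 of all genes. CEBPB-AS1, which overlaps the start of CEBPB on the other strand, had 12 to 16 reads in each HHT library and 2 to 4 in each control, with a log2 fold change of 2.02 ± 0.38 (adjusted p = 0.000223, edgeR). Against the 7145 reads of CEBPB summed over the HHT libraries, its 57 reads are few.

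The sequences before the RefSeq starts are shown for CEBPA, CEBPB and CEBPZ, the 3 genes whose HHT and control libraries did not overlap. Each is the 250 bases upstream of the RefSeq start (GRCh38.p14), 5′ to 3′ on the strand of the gene, at chr19:33302535-33302784 for CEBPA, chr20:50190580-50190829 for the downstream of 2 RefSeq starts of CEBPB and chr2:37231597-37231846 for CEBPZ. The GENCODE 29 start lies inside each of these windows, so the bases after it belong to the exon as annotated there. In CEBPB those bases hold the marked TGACG and TATAAA, and in CEBPA the marked TATAAA begins at the GENCODE start. Capitals mark TATAAA (the TATA box), TGACG (the core of the cAMP response element) and CCAAT, searched on both strands; the marked matches do not overlap.
CEBPA: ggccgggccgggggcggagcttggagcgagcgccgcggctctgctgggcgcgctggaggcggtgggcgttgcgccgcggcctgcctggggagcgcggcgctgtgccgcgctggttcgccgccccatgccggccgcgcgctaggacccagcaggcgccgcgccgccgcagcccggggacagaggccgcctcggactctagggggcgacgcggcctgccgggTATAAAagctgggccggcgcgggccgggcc
CEBPB: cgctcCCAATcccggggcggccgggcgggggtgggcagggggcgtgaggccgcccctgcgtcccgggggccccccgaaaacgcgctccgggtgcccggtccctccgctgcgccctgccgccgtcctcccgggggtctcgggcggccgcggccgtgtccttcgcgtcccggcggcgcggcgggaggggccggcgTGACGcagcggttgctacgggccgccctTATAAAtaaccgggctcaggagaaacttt
CEBPZ: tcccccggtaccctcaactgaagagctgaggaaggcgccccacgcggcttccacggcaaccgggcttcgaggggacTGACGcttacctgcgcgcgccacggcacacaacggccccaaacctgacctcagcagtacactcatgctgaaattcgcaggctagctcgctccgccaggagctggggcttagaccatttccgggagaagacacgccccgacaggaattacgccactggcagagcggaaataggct
TATAAA stood at 30 bases before the start of CEBPA and 29 before that of CEBPB, and at least 1 match is found in 10.7% of the 35116 RefSeq windows of this length. TGACG (21.2% of windows) occurred once in CEBPB, 57 bases before the start, and once in CEBPZ. CCAAT (32% of windows) occurred once in CEBPB, 245 bases before the start. The GC box GGGCGG (42.6% of windows, left in lower case) occurred 2 times in CEBPA, 5 times in CEBPB and 0 times in CEBPZ. The C/EBP palindrome TTGCGCAA (0.131% of windows) and the RUNX core TGTGGT (11% of windows) had no match in any of the 7 windows found for 5 of the 6 genes. The windows were also rich in G and C, at 81.2% for CEBPA, 77.6% for CEBPB and 62.8% for CEBPZ. In the genome, 214 bases of the CEBPA window are shared with that of CEBPA-DT on the opposite strand. These matches describe letters in the windows and were not tested as binding sites or against the HHT changes.

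CEBPZ, the ribosome assembly relative, was at 64.5 and 71 CPM in HHT-treated G7 and at 63.1 and 63.1 CPM in HHT-treated F3, against 36.9 and 49.5 CPM in G7 controls and 34.3 and 39 CPM in F3 controls. All 4 HHT libraries lay above all controls, and the HHT values were the tightest of any member in that group. The log2 fold change was 0.71 ± 0.09 (95% interval 0.54 to 0.88; adjusted p = 3.62e-06, edgeR), 1.64-fold, at percentile 76.9. The overlapping CEBPZOS was at 18.3 to 26.1 CPM in HHT libraries and 20 to 30.1 CPM in controls and did not pass the test (-0.15 ± 0.08, adjusted p = 0.0999, edgeR).

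The other 3 bZIP genes fell by less and their groups overlapped. CEBPE, the late granulocyte factor gene, was at 98.6 and 112 CPM in HHT-treated G7 and 44.7 and 48.1 CPM in HHT-treated F3, against 129 and 117 CPM in G7 controls and 68.4 and 63.7 CPM in F3 controls. Within each line the HHT libraries were below the controls, and the groups overlap because G7 carried more CEBPE than F3. The log2 fold change was -0.37 ± 0.08 (adjusted p = 0.000702, edgeR). CEBPG, the partner of ATF4, was at 53.8 and 66.5 CPM in HHT-treated G7 and 63.2 and 64.7 CPM in HHT-treated F3, against 64.3 and 64.4 CPM in G7 controls and 81.7 and 80.8 CPM in F3 controls. Its log2 fold change of -0.23 ± 0.08 (adjusted p = 0.0163, edgeR) joins F3, where the groups did not overlap, and G7, where they did. That call was lost without HHT replicate 1 (-0.18, adjusted p = 0.0784), 2 (-0.19, adjusted p = 0.0628) or 3 (-0.19, adjusted p = 0.0581, edgeR), and with no filter on low counts (-0.16, adjusted p = 0.0848). CEBPD had a log2 fold change of -0.72 ± 0.22 (adjusted p = 0.00867, edgeR) that was made up of very different values in the lines, given below with their libraries.

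Sizes moved with the scaling and with the removal of GC trends. With library totals alone in place of TMM the median log2 fold change of all genes was 0.23 instead of -0.0018, and 6682 genes were called up and 4115 down instead of 5438 and 5355. CEBPD (-0.49, adjusted p = 0.0689) and CEBPE (-0.14, adjusted p = 0.142, edgeR) then missed the threshold and CEBPG turned to 0.0036, while CEBPA, CEBPB and CEBPZ kept their calls. The longest transcripts of CEBPA, CEBPB, CEBPD and CEBPE hold 65.9%, 66.2%, 70% and 62.9% G and C, percentiles 98, 98.2, 99.8 and 93.7 of 10150 expressed genes, unlike CEBPG (43.9%, percentile 35.8) and CEBPZ (39.6%, percentile 15.8). With each library's trend with GC content removed and the replicate number as a block, CEBPA stayed at -0.92 (adjusted p = 5.33e-06), CEBPB at 1.42 (adjusted p = 2.42e-06), CEBPZ at 0.42 (adjusted p = 0.000344) and CEBPG at -0.34 (adjusted p = 0.00277, edgeR). CEBPD (-0.32, adjusted p = 0.195) and CEBPE (-0.08, adjusted p = 0.435, edgeR) were no longer called.

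**Figure D2:**
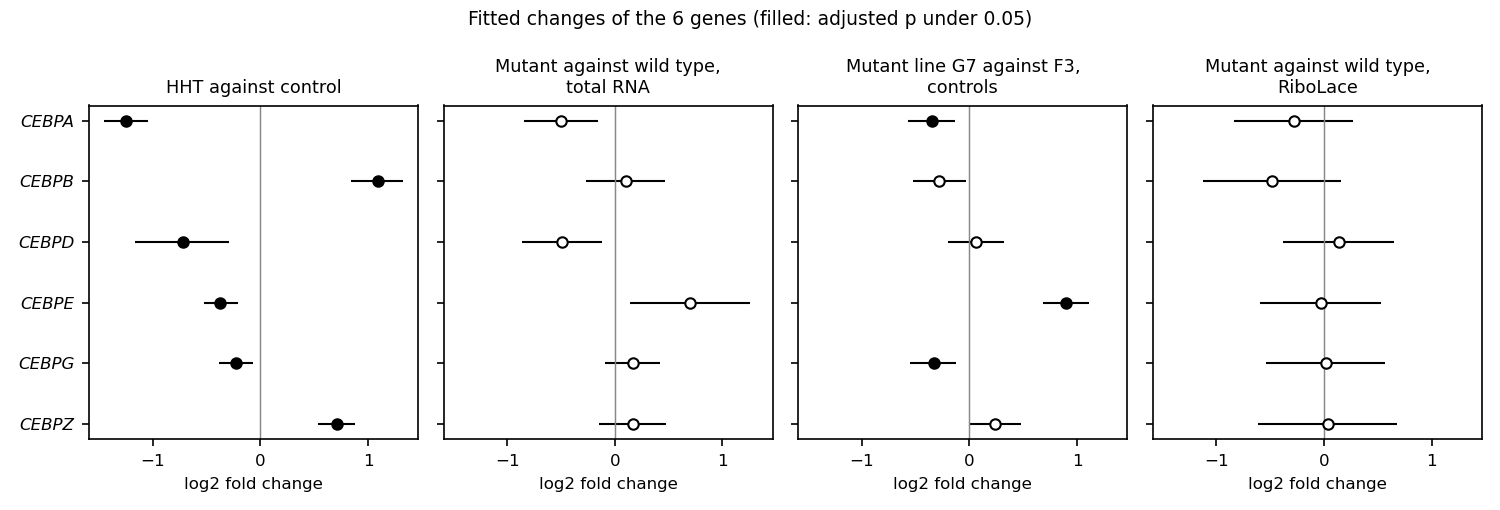
Fitted log2 fold changes of the 6 genes with 95% intervals in 4 comparisons, filled where the adjusted p was under 0.05 (edgeR). HHT gave the largest changes, -1.25 for CEBPA and 1.09 for CEBPB, no gene passed in mutant against wild type in either assay, and CEBPE (0.90) led the difference between the mutant lines.

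The make-up of the bZIP transcripts changed with it. Taking the 5 bZIP genes per kilobase of exon, CEBPA made up 9.51% to 13.5% of their sum in HHT libraries, 17.3% to 25.9% in mutant controls and 26.9% to 28.2% in wild type. CEBPB made up 18% to 28.5% in HHT libraries, 7.23% to 10.2% in mutant controls and 7.14% to 7.7% in wild type. The ratio of CEBPB to CEBPA per kilobase, on the log2 scale, was 1.00 and 0.92 in HHT-treated G7 and 1.19 and 1.08 in HHT-treated F3, against -1.18 and -1.33 in G7 controls, -1.26 and -1.39 in F3 controls and -1.87 and -1.91 in wild type. CEBPB transcripts were thus the more abundant of the pair in every HHT library and CEBPA transcripts in every other library of total RNA. CEBPE accounted for the largest share in HHT-treated G7, at 45.8% and 45.5%, and CEBPD in HHT-treated F3, at 33.2% and 35%. The same genes led in the controls of each line. CEBPE was at 34.6% and 39.9% in G7 controls, beside CEBPD at 34.4% and 26.9%, and CEBPD was at 32.6% and 33.7% in F3 controls.

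**Figure D3:**
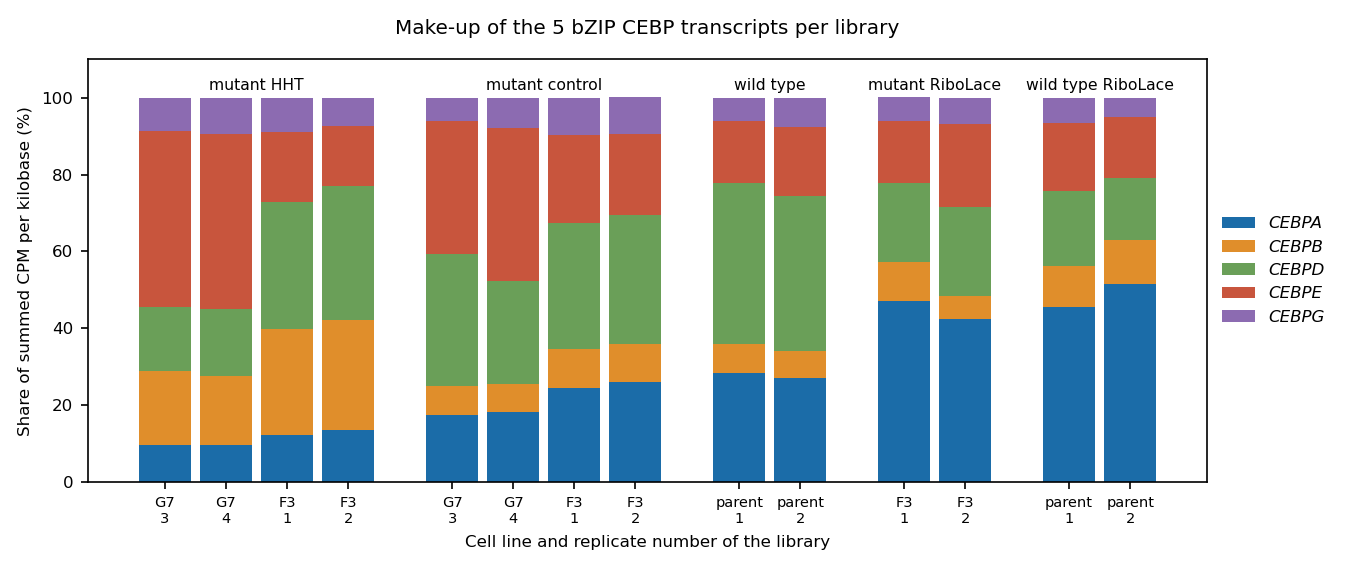
Share of each bZIP gene in the summed CPM per kilobase of exon of the 5 genes, one bar per library, labelled with its line and replicate number. CEBPB takes 18% to 28.5% in HHT libraries and at most 11.5% elsewhere, and CEBPA takes 42.4% to 51.4% in RiboLace libraries.

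CEBPD, the acute phase factor gene, was the member whose HHT response differed between the lines. It was at 49.9 and 60.6 CPM in HHT-treated G7 and at 115 and 151 CPM in HHT-treated F3, against 179 and 111 CPM in G7 controls and 136 and 142 CPM in F3 controls. Both treated G7 libraries were below all controls, while the treated F3 libraries lay on either side of theirs. Fitted within a line, the log2 fold change was -1.38 ± 0.18 in G7 (adjusted p = 2.23e-05) and -0.09 ± 0.10 in F3 (adjusted p = 0.398, edgeR). The difference itself was -1.30 ± 0.24 (95% interval -1.77 to -0.83; adjusted p = 0.00607, edgeR). In all, 4.2% of the genes tested passed this test of the line difference, and CEBPD was the 1 member of 6 that did. The call was lost without control replicate 1 (-1.25, adjusted p = 0.094) or 2 (-1.30, adjusted p = 0.0564, edgeR), both of line F3.

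The fitted changes of the other members, like those of CEBPD, had the same sign in both lines, though CEBPG in G7 and CEBPD in F3 were near 0 (-0.09 each). CEBPA had a log2 fold change of -1.40 ± 0.12 in G7 and -1.11 ± 0.11 in F3, CEBPB 0.80 ± 0.13 and 1.35 ± 0.10, and CEBPZ 0.66 ± 0.13 and 0.75 ± 0.07, each called in both lines, where 69.5% of all genes were called in G7 and 77.4% in F3. CEBPE (-0.21 ± 0.10, adjusted p = 0.0759) and CEBPG (-0.09 ± 0.11, adjusted p = 0.517) missed the threshold in G7 and passed in F3 (-0.54 ± 0.07, adjusted p = 2.06e-05, and -0.38 ± 0.06, adjusted p = 0.000125, edgeR). The differences between lines were -0.31 (adjusted p = 0.388) for CEBPA, -0.56 (adjusted p = 0.105) for CEBPB, 0.32 (adjusted p = 0.184) for CEBPE, 0.28 (adjusted p = 0.269) for CEBPG and -0.10 (adjusted p = 0.812, edgeR) for CEBPZ. With the replicate number as a block, which called 2199 genes (16.1%) in place of 572, 4 of these 5 also passed: CEBPA (-0.29, adjusted p = 0.022), CEBPB (-0.54, adjusted p = 1.18e-05), CEBPE (0.32, adjusted p = 0.00922) and CEBPG (0.28, adjusted p = 0.0314, edgeR). With the GC trend also removed CEBPA was not called (-0.21, adjusted p = 0.117, edgeR). The block pairs libraries by title number, although the descriptions carry other numbers, so these added calls depend on an unproven pairing. In G7, CEBPA, CEBPB and CEBPE were higher in replicate 3 than in replicate 4 of the controls and lower with HHT. CEBPG and CEBPZ were lower in both. CEBPB also passed without control replicate 4 (-0.73, adjusted p = 0.0112), without HHT replicate 1 (-0.73, adjusted p = 0.0362) and with no filter on low counts (-0.57, adjusted p = 0.0035, edgeR).

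**Figure D4:**
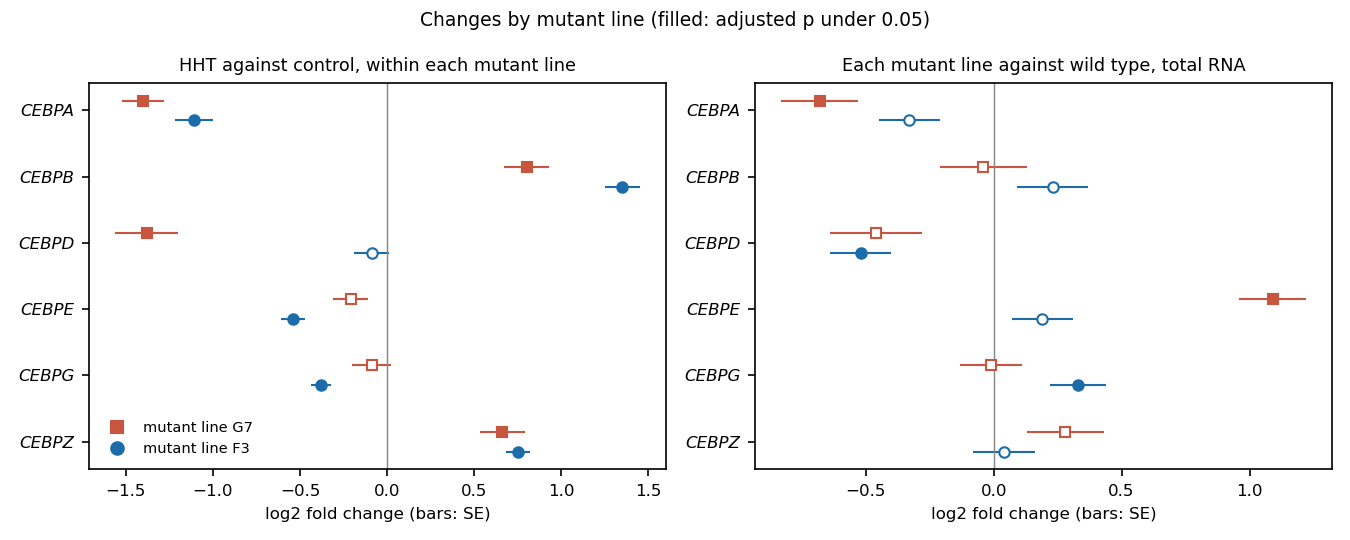
Log2 fold changes with approximate SE, fitted within line G7 and within line F3, for HHT against control (left) and for each line's controls against wild type (right); filled points had an adjusted p under 0.05 (edgeR). CEBPD responded to HHT by -1.38 in G7 and -0.09 in F3, and CEBPE was 1.09 above wild type in G7 and 0.19 above it in F3.

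Genes that work with the CEBP factors or are textbook targets were followed as 5 lists, and for all of them the HHT background above applies. Among partners and regulators of C/EBP proteins, 15 rose and 13 fell of 31 tested, with a median log2 fold change of 0.08 (-0.0018 over all genes). TRIB1, whose protein marks C/EBPα for degradation, averaged 257 CPM in HHT libraries and 12.8 CPM in controls (4.30 ± 0.10, adjusted p = 3.91e-13). ATF3, a stress-induced bZIP factor, averaged 146 and 14.8 CPM (3.30 ± 0.08, adjusted p = 7.03e-13, edgeR). MYC, a proliferation factor, averaged 178 and 1722 CPM (-3.33 ± 0.12, adjusted p = 1.84e-11, edgeR). DDIT3, the gene of CHOP, fell to a mean of 30.1 CPM in HHT libraries, against 71 CPM in controls (-1.19 ± 0.14, adjusted p = 1.83e-06, edgeR).

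Of 28 granulocyte targets of C/EBPα and C/EBPε, 16 were tested in this comparison, of which 2 rose and 14 fell, with a median of -1.47. PRTN3 (proteinase 3 of azurophil granules) averaged 38.6 CPM in HHT libraries and 1346 CPM in controls (-5.13 ± 0.09, adjusted p = 3.39e-14). ELANE (neutrophil elastase) averaged 126 and 400 CPM (-1.64 ± 0.06, adjusted p = 3.04e-11), and IL6R, the interleukin 6 receptor, 74.1 and 251 CPM (-1.76 ± 0.06, adjusted p = 1.67e-11, edgeR). Of 32 inflammatory targets of C/EBPβ and C/EBPδ, 20 were tested, of which 10 rose and 8 fell, with a median of 0.39. The chemokines CCL3 (19.3 CPM in HHT libraries and 0.157 CPM in controls, 6.88 ± 0.19, adjusted p = 1.81e-12) and CXCL8 (183 and 20 CPM, 3.12 ± 0.12, adjusted p = 2.87e-11) and the cytokine IL1B (18.3 and 2.1 CPM, 3.14 ± 0.14, adjusted p = 8.39e-11, edgeR) were among those that rose.

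Of the amino acid and stress targets shared by C/EBPγ and ATF4, 3 rose and 23 fell of 26 tested, with a median of -1.81. The serine synthesis enzymes PSAT1 (5.36 CPM in HHT libraries and 76.8 CPM in controls, -3.84 ± 0.08, adjusted p = 2.36e-13) and PHGDH (64.9 and 279 CPM, -2.10 ± 0.06, adjusted p = 2.93e-12) and the lipoprotein receptor VLDLR (7.03 and 46 CPM, -2.72 ± 0.08, adjusted p = 2.57e-12, edgeR) fell. The transcript of ATF4 itself averaged 1533 CPM in HHT libraries and 1019 CPM in controls. Of 32 factors of large subunit assembly, listed for comparison with CEBPZ, 18 rose and 6 fell, with a median of 0.51. The rRNA methyltransferases NOP2 (271 CPM in HHT libraries and 93.6 CPM in controls, 1.53 ± 0.06, adjusted p = 3.47e-11) and FTSJ3 (153 and 72.7 CPM, 1.08 ± 0.07, adjusted p = 4.94e-09) and the processing factor RRP12 (257 and 111 CPM, 1.21 ± 0.08, adjusted p = 4.42e-09, edgeR) rose, and CEBPZ's 0.71 lay above the list's median.

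Mutant controls were next set against wild-type total RNA, the comparison of the RUNX1 stop codon with its parent line, which uses the same 4 controls as the HHT comparison. None of the 6 genes passed when both mutant lines formed 1 group, against 4.56% of the 13949 genes tested. CEBPA was at 109 and 90.6 CPM in G7 and 123 and 132 CPM in F3, against 189 and 131 CPM in wild type, with a log2 fold change of -0.50 ± 0.17 (adjusted p = 0.133, edgeR). CEBPD was at 179, 111, 136 and 142 CPM in those mutant libraries, against 232 and 164 CPM in wild type (-0.49 ± 0.19, adjusted p = 0.168, edgeR). In both genes the lower wild-type library lay within the mutant range. CEBPE was at 129 and 117 CPM in G7 and 68.4 and 63.7 CPM in F3, against 64.2 and 51.3 CPM in wild type (0.70 ± 0.29, adjusted p = 0.188, edgeR). CEBPA stood at -0.21 without wild-type replicate 1 and -0.74 without replicate 2, and CEBPD at -0.21 and -0.72 without the same libraries, none of them called. CEBPB (0.10 ± 0.19, adjusted p = 0.814), CEBPG (0.17 ± 0.13, adjusted p = 0.508) and CEBPZ (0.17 ± 0.16, adjusted p = 0.599, edgeR) had smaller differences. Their 95% intervals ran between -0.27 and 0.47 for CEBPB, -0.09 and 0.42 for CEBPG and -0.15 and 0.48 for CEBPZ.

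Taken line by line, 2 of the 6 genes passed in G7, beside 15.1% of all genes, and 2 in F3, beside 22.7%. In G7, CEBPE was higher by 1.09 ± 0.13 (adjusted p = 5.47e-06) and CEBPA lower, at -0.68 ± 0.15 (adjusted p = 0.00318, edgeR). In F3, CEBPD was lower, at -0.52 ± 0.12 (adjusted p = 0.00295), and CEBPG higher, at 0.33 ± 0.11 (adjusted p = 0.0266, edgeR). With a replicate block on the same F3 and wild-type libraries CEBPG was not called (0.33, adjusted p = 0.0665, edgeR). With those replicates paired the other way round, CEBPG (0.33, adjusted p = 0.00451) and CEBPA (-0.31, adjusted p = 0.00278, edgeR) were called, beside 4028 of 13565 genes. Both pairings are unproven. With the mean of the line coefficients, which leaves the difference between lines out of the error, CEBPA (-0.51, adjusted p = 0.00677), CEBPD (-0.49, adjusted p = 0.0301) and CEBPE (0.64, adjusted p = 0.000444, edgeR) passed, beside 20.4% of all genes. The same 3 passed with no filter on low counts, beside 6% of all genes. CEBPD also passed with the GC trend removed (-0.43, adjusted p = 0.0483, edgeR). The wild-type pair differed from each other with GC content: the median log2 difference of replicate 1 from replicate 2 was -0.18 over the 10% of genes lowest in GC and 0.20 over the 10% highest. The GC-rich CEBPA, CEBPB and CEBPD differed by 0.52, 0.56 and 0.50 between those libraries. The share of this in the differences from wild type was not tested beyond the removal of the GC trend. ITGA2B, the megakaryocyte marker, was higher on average in mutant controls than in wild type (above), and its part in these values was not tested.

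Among the gene lists, granulocyte targets showed the largest share of calls against wild type, 8 up and 1 down of 18 tested, beside 2.49% up and 2.07% down over all genes, with a median of 0.57 (0.0032 over all genes). ELANE averaged 400 CPM in mutant controls and 34.3 CPM in wild type (3.54 ± 0.36, adjusted p = 0.00148), PRTN3 1346 and 330 CPM (2.02 ± 0.13, adjusted p = 0.000137) and AZU1, the granule protein azurocidin, 3986 and 1918 CPM (1.05 ± 0.14, adjusted p = 0.00486, edgeR). Inflammatory targets had 0 up and 2 down of 20, CXCL8 (20 CPM in mutant controls and 49 CPM in wild type, -1.30 ± 0.13, adjusted p = 0.00141) and S100A9 (53.3 and 170 CPM, -1.68 ± 0.39, adjusted p = 0.046, edgeR). Partners and regulators had 4 up and 0 down of 31, with MYC at 1722 CPM in mutant controls and 1068 CPM in wild type (0.68 ± 0.10, adjusted p = 0.00868, edgeR). Of the targets shared by C/EBPγ and ATF4, 3 of 27 rose and 0 fell, and none of the 32 assembly factors was called.

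Between the mutant lines' controls CEBPE had the largest difference of the 6 genes. It was at 129 and 117 CPM in G7 controls, against 68.4 and 63.7 CPM in F3 controls, without overlap (0.90 ± 0.11, 95% interval 0.68 to 1.11, adjusted p = 4.95e-08, edgeR). CEBPA (-0.35 ± 0.11, adjusted p = 0.0238) and CEBPG (-0.33 ± 0.11, adjusted p = 0.0277, edgeR) were lower in G7, also without overlap. CEBPB did not overlap between the lines either, though it was not called, and the share of all genes without overlap was not counted. Thus 1 member was called up and 2 down, beside 7.37% up and 8.52% down of all genes and 15.9% in all. Both of these smaller calls were lost without some libraries. CEBPA missed the threshold without control replicate 1 (-0.41, adjusted p = 0.142), 2 (-0.31, adjusted p = 0.349) or 4 (-0.22, adjusted p = 0.143, edgeR). CEBPG missed it without replicate 1 (-0.33, adjusted p = 0.287) or 2 (-0.35, adjusted p = 0.264, edgeR), where F3 is left with 1 library and the SE is 0.17. The G7 pair itself differed in the GC-rich members, CEBPD being at 179 and 111 CPM. Its difference from F3 was 0.06 ± 0.13 (adjusted p = 0.828), 0.37 without control replicate 4 (adjusted p = 0.00659) and -0.34 without control replicate 3 (adjusted p = 0.0211, edgeR). CEBPB (-0.28 ± 0.12, adjusted p = 0.133) and CEBPZ (0.24 ± 0.12, adjusted p = 0.207) did not pass, and did so without control replicate 3 (-0.51, adjusted p = 0.000443, and 0.43, adjusted p = 0.00186, edgeR).

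Granulocyte targets differed between the lines in both directions, 8 up and 5 down of 18 tested. BPI, a bactericidal granule protein, was higher in G7 (2.89 ± 0.11, adjusted p = 6.25e-22), as were CTSG, cathepsin G (1.60 ± 0.12, adjusted p = 2.89e-13), and SORT1 (2.82 ± 0.21, adjusted p = 2.64e-13, edgeR). Inflammatory targets had 3 up and 10 down of 18. ARG1, arginase (1.98 ± 0.16, adjusted p = 2.96e-12), and S100A9 (1.44 ± 0.12, adjusted p = 8.29e-12) were higher in G7, and IL1RN, the interleukin 1 receptor antagonist, was lower (-2.24 ± 0.19, adjusted p = 4.52e-12, edgeR). Partners and regulators had 5 up and 5 down of 31, the C/EBPγ and ATF4 targets 2 up and 6 down of 27 and the assembly factors 6 up and 0 down of 32.

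In RiboLace libraries none of the 6 genes differed between mutant F3 and wild type past the threshold, where 11.8% of 9805 genes did. CEBPA was at 317 and 233 CPM in mutant and 279 and 397 CPM in wild type (-0.28 ± 0.28, adjusted p = 0.549), CEBPD at 115 and 105 CPM in mutant and 98.7 and 103 CPM in wild type (0.14 ± 0.26, adjusted p = 0.783, edgeR). CEBPB was at 51 and 24.8 CPM in mutant and 49.4 and 65.9 CPM in wild type (-0.48 ± 0.33, adjusted p = 0.357, edgeR), the lowest of these values resting on 12 reads. Without mutant replicate 1 CEBPB stood at -1.20 and without mutant replicate 2 at -0.16, and CEBPA ranged between -0.53 and -0.02 with single libraries left out, none of them called. CEBPE, CEBPG and CEBPZ had log2 fold changes of -0.03 ± 0.29, 0.02 ± 0.28 and 0.04 ± 0.33. At this depth the 95% intervals were wide, between -0.83 and 0.27 for CEBPA and between -0.61 and 0.68 for CEBPZ. These libraries cannot tell apart the differences inside such an interval. The replicate pairs of both genotypes again differed with GC content, by a median log2 of -0.23 in the lowest and 0.25 in the highest 10% of genes for mutant replicate 1 against 2, and 0.23 and -0.24 for wild type. The summed level of adherent-cell markers was 17.6 to 24.8 CPM in mutant RiboLace and 12.1 to 13.9 CPM in wild-type RiboLace, of which COL1A1 made up 18.4 and 7.99 CPM on average, beside 0.147 CPM in mutant control and 0.107 CPM in wild-type total RNA. The megakaryocyte list summed to 8.25 to 16.7 CPM in mutant RiboLace and 5.57 to 9.98 CPM in wild-type RiboLace. The part of these markers in the RiboLace values was not tested.

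The lists were counted in RiboLace as well. Beside 6.18% up and 5.59% down over all genes, granulocyte targets had 4 up and 4 down of 13 tested in mutant against wild-type RiboLace. ELANE was at 265 CPM in mutant and 46.6 CPM in wild type (2.52 ± 0.30, adjusted p = 1.96e-06), BPI at 94.3 and 15.9 CPM (2.48 ± 0.34, adjusted p = 9.87e-06) and LYZ, lysozyme, at 62.5 and 396 CPM (-2.69 ± 0.32, adjusted p = 2.07e-06, edgeR). Inflammatory targets had 0 up and 5 down of 8, and the targets shared by C/EBPγ and ATF4 had 0 up and 5 down of 22. Partners and regulators had 2 up and 0 down of 26, and assembly factors 0 up and 2 down of 32.

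Set against total RNA of the same genotype, CEBPA was the member most enriched by RiboLace. In mutant F3 it was at 317 and 233 CPM in RiboLace and 123 and 132 CPM in total RNA (1.27 ± 0.22, adjusted p = 4.88e-05, edgeR). In wild type it was at 279 and 397 CPM in RiboLace and 189 and 131 CPM in total RNA (1.25 ± 0.21, adjusted p = 3.51e-05, edgeR). These changes stood at percentile 76.8 of all genes tested in mutant F3 and 78.9 in wild type. Here and below, CPM were scaled within each assay and share no common scale between assays. The log2 fold changes come from 1 joint fit and can differ from ratios of these CPM. The F3 total RNA came from control cultures and the F3 RiboLace from untreated ones, so assay and handling cannot be told apart there. CEBPA transcripts made up 42.4% to 51.4% of the bZIP sum per kilobase in RiboLace, beside 24.5% to 28.2% in the matching total RNA. In mutant F3 CEBPA was the only member called, beside 49.2% of all genes (26.5% up, 22.7% down). In wild type 2 were called up and 1 down, beside 48.3% of all 15338 genes (27.3% up, 21% down).

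CEBPB was at 49.4 and 65.9 CPM in wild-type RiboLace and 38.3 and 25.9 CPM in wild-type total RNA (0.99 ± 0.23, adjusted p = 0.000946, edgeR). In mutant F3 it was at 51 and 24.8 CPM in RiboLace and 38.4 and 37.3 CPM in total RNA (0.31 ± 0.28, adjusted p = 0.375), a value that turned to -0.51 without mutant RiboLace replicate 1 (adjusted p = 0.505, edgeR). CEBPD was lower in wild-type RiboLace, at 98.7 and 103 CPM against 232 and 164 CPM in total RNA (-0.79 ± 0.19, adjusted p = 0.00135), and missed the threshold without wild-type total RNA replicate 1 (-0.46, adjusted p = 0.083, edgeR). In mutant F3 CEBPD was at 115 and 105 CPM in RiboLace and 136 and 142 CPM in total RNA (-0.19 ± 0.20, adjusted p = 0.466, edgeR).

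CEBPE (0.42 ± 0.17, adjusted p = 0.0533) and CEBPZ (0.45 ± 0.21, adjusted p = 0.0774, edgeR) were close to the threshold in wild type and passed it with RLE size factors (0.50, adjusted p = 0.0233, and 0.53, adjusted p = 0.0394) and with the GC trend removed (0.47, adjusted p = 0.0147, and 0.48, adjusted p = 0.0305, edgeR). CEBPE also passed without wild-type total RNA replicate 1 (0.65, adjusted p = 0.0132), and CEBPZ without wild-type total RNA replicate 2 (0.69, adjusted p = 0.0202) or RiboLace replicate 2 (0.66, adjusted p = 0.0112, edgeR). Without wild-type RiboLace replicate 1 CEBPZ stood at -0.05 (adjusted p = 0.9, edgeR). CEBPG had 0.22 ± 0.17 in wild type and -0.13 ± 0.18 in mutant F3. The ratio of RiboLace to total RNA, a measure of translational efficiency, differed between mutant F3 and wild type past the threshold for none of the 6 genes, beside 1.49% of all genes (74 up and 155 down; 72 and 79 with library totals alone). The nearest were CEBPD (0.61 ± 0.28, adjusted p = 0.268) and CEBPB (-0.68 ± 0.35, adjusted p = 0.336, edgeR), and for CEBPA the 95% interval of the difference ran between -0.57 and 0.61.

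**Figure D5:**
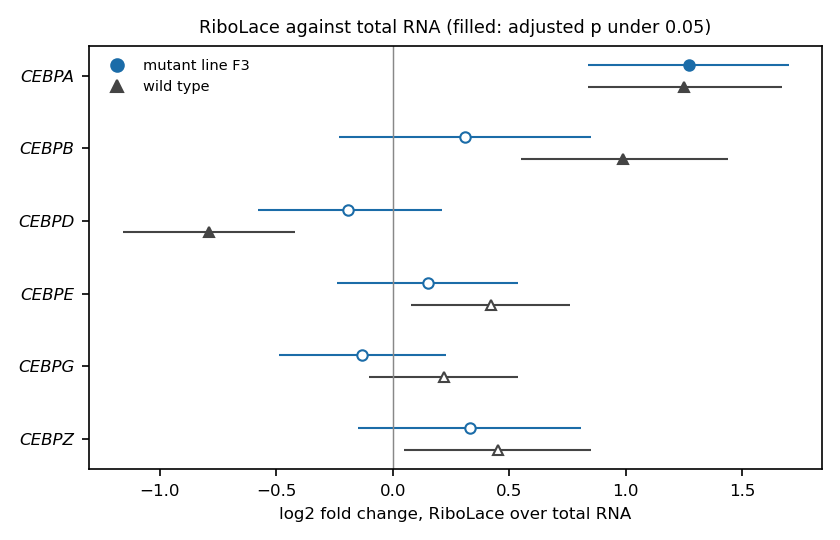
Log2 fold change of RiboLace over total RNA with 95% intervals for each gene in mutant line F3 and in wild type; filled points had an adjusted p under 0.05 (edgeR). CEBPA lay at 1.27 in mutant F3 and 1.25 in wild type, and CEBPD at -0.19 and -0.79.

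The bZIP partners DDIT3 and ATF4 were lower in RiboLace than in total RNA. DDIT3 averaged 10.6 CPM in mutant F3 RiboLace and 91.7 CPM in F3 total RNA (-2.74 ± 0.28, adjusted p = 2.82e-08), and 8.18 CPM in wild-type RiboLace and 41.9 CPM in wild-type total RNA (-2.14 ± 0.27, adjusted p = 8.23e-07, edgeR). ATF4, whose translation upstream reading frames hold down, had -2.59 ± 0.21 in mutant F3 (adjusted p = 1.10e-09) and -2.49 ± 0.21 in wild type (adjusted p = 1.51e-09, edgeR). Over the partners and regulators 9 were higher and 14 lower in RiboLace in mutant F3 and 3 and 8 in wild type, of 31 tested. Of the targets shared by C/EBPγ and ATF4, 4 were higher and 18 lower in mutant F3 and 4 and 10 in wild type, of 26 tested. Of granulocyte targets these numbers were 3 and 8 in mutant F3 and 7 and 1 in wild type, of 17. Inflammatory targets had 2 higher and 5 lower in mutant F3 and 8 and 4 in wild type, of 20, and assembly factors 6 and 9 in mutant F3 and 3 and 7 in wild type, of 32. The nucleolar protein gene NPM1 was lower in both (-4.27 ± 0.22, adjusted p = 2.38e-13, and -3.83 ± 0.21, adjusted p = 5.20e-13, edgeR). Both genotypes' RiboLace libraries were scaled with total RNA in 1 fit that assumes the same spread for both assays.

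The genes whose log CPM followed each member most closely over the 10 total RNA libraries were sought among 9765 genes. CEBPA was followed by CST3 (Pearson r = 0.989), DGCR6L (0.985) and PDCD2 (0.984), CEBPB by RNF149 (0.981), TRIM11 (0.979) and ATG4D (0.972). CEBPD was followed by CHCHD10 (0.983), TLNRD1 (0.976) and TRIR (0.972). CEBPE was followed by CST7 (0.97), C1orf162 (0.961) and MT-CYB (0.961), CEBPG by SMAP1 (0.908), ZNF467 (0.907) and LGALS1 (0.906). CEBPZ was followed by ELP3 (0.989), RRN3 (0.986) and ZNF184 (0.984). CST7, which encodes cystatin F, averaged 33.7 CPM in HHT libraries, 77.8 CPM in mutant controls and 10.5 CPM in wild type, a wider range than that of CEBPE. These correlations describe 10 libraries that share lines, treatment and base composition.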

How the data were processed

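The deposited values are the authors' raw counts of reads per gene in 14 libraries, and no column was left without a label. The submitters' processing notes name GRCh38, DESeq2 and STAR 2.6.0b, without roles. The counter is not given in the sources used here, nor are its strand setting or the RiboLace protocol. Of 58037 gene IDs, 57433 matched GENCODE 29, which gave symbols, coordinates and exon lengths; promoter windows came from RefSeq (GRCh38.p14).

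Genes were filtered with filterByExpr, scaled by TMM and tested with edgeR 4.0.16 (quasi-likelihood, R 4.3.3), with Benjamini-Hochberg adjustment over all genes tested, at 0.05. The HHT comparison had 8 libraries and a covariate for line. The G7 minus F3 difference was its interaction. For mutant against wild type both lines formed 1 group; G7 against F3 took the 4 controls, and RiboLace its own 4 libraries. RiboLace over total RNA and the difference of ratios came from 1 model of 8 libraries, with F3 controls as the mutant total RNA. SE is the absolute log2 fold change over the square root of F, and 95% intervals are 1.96 SE. CPM were computed here with TMM within each assay. Poisson intervals cover counting error only; replicates differed by more, with chi-square values of 2.95 to 11.3 for each degree of freedom. The fits were tested on simulated data.

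Named genes are the 6 members, genes over or beside them, DDIT3, in each list and comparison up to 3 genes with the smallest adjusted p, and the 3 genes most like each member (mean CPM of at least 5, log CPM with a prior count of 2). The 5 lists hold 155 genes from general knowledge. Members and lists were chosen with earlier results of these data known. ATF4's levels with HHT and CST7's levels were singled out after their values were seen. Title numbers were taken as pairing HHT and control libraries, although the descriptions carry other numbers. Same-numbered libraries deviated together from group means (r of 0.516 to 0.646). They always share a line, so the line difference enters these values and they cannot test the pairing. Within lines r was 0.247 in F3 and 0.468 in G7. The G7 pairs also shared a trend with GC content, whose part in r was not tested. GC content is that of the longest transcript. Alternatives were other scalings, no filter, DESeq2 1.42.0, each library left out, other treatments of lines, replicate blocks, protein-coding genes alone and limma-voom (limma 3.58.1). Removal of the GC trend (loess, span 0.5) and the crossed pairing were chosen after seeing the data.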

Additional observations from a re-analysis of the deposited data

Results flagged for a closer look

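CEBPD stood out because its HHT response differed between the mutant lines: the log2 fold change of HHT against control was -1.38 ± 0.18 in G7 and -0.09 ± 0.10 in F3, and the difference was -1.30 ± 0.24 (adjusted p = 0.00607, edgeR, 4 libraries per line). Both treated G7 libraries were below both G7 controls, at 49.9 and 60.6 CPM against 179 and 111 CPM. The G7 controls differ from each other by 0.70 on the log2 scale in CEBPD, and between them the median difference was -0.13 over the genes lowest and 0.23 over the genes highest in GC content. With the GC trend removed and the replicate block the difference between lines was -1.10.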

How the results depend on the processing

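Of 678 recomputed member values, 587 kept their direction and side of the threshold. With the direction kept, 23 lost a call and 38 gained one. The other 30 changed sign, whether or not their call changed as well. Of 113 recomputed counts of genes called, 42 moved by over 1.5 times. The cause was not tested unless stated. CEBPA, CEBPB and CEBPZ kept their HHT calls under every alternative run. The replicate block changed no call of a member beside those given here and in the report, which include CEBPG in F3 against wild type (0.33, adjusted p = 0.0665 with the block, edgeR).

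HHT against control: library totals alone gave CEBPD -0.49, CEBPE -0.14 and CEBPG 0.0036; F3 alone CEBPD -0.09; G7 alone CEBPE -0.21 and CEBPG -0.09; no filter CEBPG -0.16; the replicate block with the GC trend removed CEBPD -0.32 and CEBPE -0.08. Leaving out single libraries gave CEBPG -0.31 to -0.18.

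HHT response, G7 minus F3: the replicate block gave 2199 genes called, CEBPA -0.29, CEBPB -0.54, CEBPE 0.32 and CEBPG 0.28; with the GC trend also removed, 2324 genes, CEBPB -0.46, CEBPE 0.36, CEBPG 0.26 and, not called, CEBPA -0.21; no filter CEBPB -0.57. Genes called, 572, came to 170, 307 and 1045 without control replicates 1, 2 and 4 and to 333, 236, 243 and 353 without HHT replicates 1, 2, 3 and 4. Single libraries left out gave CEBPA -0.53 to -0.07, CEBPB -0.73 to -0.31, CEBPD -1.58 to -0.89 and CEBPZ -0.27 to 0.15.

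Mutant against wild type, total RNA (636 genes called): 1116 genes were called with DESeq2, 1655 with no filter, 3080 for F3 alone, 2059 for G7 alone, 2846 with the mean of the line coefficients and 2641 with the replicate block of F3 and wild type. A crossed pairing of those replicates, whose deviations had r of -0.169, called 4028. Among them were CEBPA (-0.31, adjusted p = 0.00278), CEBPD (-0.50, adjusted p = 3.11e-07) and CEBPG (0.33, adjusted p = 0.00451, edgeR). No filter gave CEBPA -0.50, CEBPD -0.48 and CEBPE 0.71; the mean of the lines CEBPA -0.51, CEBPD -0.49 and CEBPE 0.64; G7 alone CEBPA -0.68, CEBPB -0.04, CEBPE 1.09 and CEBPG -0.01; F3 alone CEBPD -0.52 and CEBPG 0.33; the GC trend removed CEBPD -0.43; and the replicate block CEBPD -0.50. Single libraries left out gave 43 (without wild-type replicate 1; 63 without 2) to 649 genes, CEBPA -0.74 to -0.21, CEBPB -0.16 to 0.41 and CEBPD -0.72 to -0.21, the extremes of CEBPA and CEBPD without the wild-type libraries.

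G7 against F3 controls (2166 genes): 1421 were called with DESeq2 and 648 with no filter, with 218 up and 430 down against 1005 and 1161. Library totals alone gave CEBPA -0.32 and CEBPG -0.31, and no filter -0.37 and -0.35. Single libraries left out gave 946 (without control replicate 2; 1037 without 1) to 2879 genes, CEBPA -0.50 to -0.22, CEBPB -0.51 to -0.08, CEBPD -0.34 to 0.37, CEBPG -0.35 to -0.33 and CEBPZ 0.01 to 0.43.

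Mutant against wild type, RiboLace (1154 genes): DESeq2 called 415. CEBPE was 0.04 with the GC trend removed and 0.03 with library totals alone, CEBPG -0.08 with no filter, and CEBPZ -0.02 with the GC trend removed and -0.06 with no filter. Genes called came to 574 and 247 without mutant replicates 1 and 2 and to 338 and 1811 without wild-type replicates 1 and 2. Single libraries left out gave CEBPA -0.53 to -0.02, CEBPB -1.20 to -0.16, CEBPE -0.12 to 0.04, CEBPG -0.10 to 0.09 and CEBPZ -0.25 to 0.42.

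RiboLace against total RNA: in wild type, DESeq2, RLE size factors and protein-coding genes alone each gave CEBPE 0.50, RLE and protein-coding genes CEBPZ 0.53, and the GC trend removed 0.47 and 0.48; library totals alone turned 4194 genes up and 3214 down into 3703 and 4001 and the median of all genes to -0.13. Single libraries left out gave CEBPD -0.95 to -0.46, CEBPE 0.33 to 0.65 and CEBPZ -0.05 to 0.69. In mutant F3 they gave 4679 to 7885 genes and CEBPB -0.51 to 0.57, the lowest of both without mutant RiboLace replicate 1, and RLE size factors 4368 up and 2958 down against 4063 and 3485. For the difference of ratios (229 genes), DESeq2 called 606, the GC trend removed 487, library totals alone 151, limma-voom 41, no filter 527 and protein-coding genes 361; CEBPA was -0.02 with the replicate block and CEBPZ 0.02 with library totals alone. Genes called came to 139 and 29 without mutant RiboLace replicates 1 and 2, 66 and 33 without mutant control replicates 1 and 2, 101 and 1497 without wild-type RiboLace replicates 1 and 2, and 24 and 25 without wild-type total RNA replicates 1 and 2. Single libraries left out gave CEBPA -0.27 to 0.28 and CEBPZ -0.38 to 0.33.

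RiboLace members rest on few reads, down to 12 for CEBPB in mutant replicate 2.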
